A study of Mus musculus with 17 samples.

Results

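This experiment asked how gene expression differed between lymphoid tissue inducer (LTi) cells kept in culture with palmitic acid and LTi cells kept without it. It consists of the 4 of the series' 17 samples whose titles name LTi cells with (PA) or without (Ctr) palmitic acid, 2 libraries in each group. All 4 came from adult B6 (C57BL/6) mice with no treatment in the animal. The cells were taken from the small intestinal lamina propria and sorted for CCR6 and c-Kit within the viable CD127+ cells that lacked lineage markers and KLRG-1. They then spent 3 days in culture. The only stated difference between the groups is palmitic acid, for which the labels print a concentration of 100 mM. That is above the solubility of the fatty acid in medium, so the dose in the culture is uncertain. The labels name no carrier for the cells without it, and they do not say whether the replicates were separate mice or cultures. The p-values below therefore measure the spread between these libraries, which may be technical. Elsewhere in the series are 4 libraries of small intestinal LTi cells given palmitic acid with etomoxir or its vehicle, 8 of colonic LTi cells and 1 single-cell library.

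LTi cells are innate lymphocytes of group 3, known for the cytokines interleukin-22 and lymphotoxin, and for their part in building lymphoid tissue in the gut. Palmitic acid is a saturated long-chain fatty acid. After uptake it is joined to coenzyme A, and is then burnt in mitochondria once the carnitine shuttle has carried it in, built into membrane lipids, attached to proteins, or stored as triglyceride in lipid droplets. Perilipins coat those droplets, and fatty acids are known ligands of the PPAR receptors, which switch on genes of fatty acid use.

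The 4 libraries were alike in depth, at 26869203 to 28992085 counts, so that 3 counts were worth 0.103 to 0.112 CPM, the unit that scales a gene's counts to the library total. Mitochondrial transcripts took 1.95% and 1.70% of counts without palmitic acid and 1.64% and 1.58% with it. Across genes, log2 CPM correlated at 0.945 and 0.949 within the groups and at 0.940 to 0.948 between them, so libraries of a group were hardly more alike than libraries of different groups. The count columns of the libraries with palmitic acid are headed iL, while their labels say P, so their assignment rests on titles and labels.

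Palmitic acid was accompanied by a small and lopsided set of differences. Of 13811 genes tested, 1 was higher with palmitic acid and 36 were lower at an adjusted p under 0.05 (edgeR quasi-likelihood test, Benjamini-Hochberg over all genes tested). These are 0.00724% and 0.261% of the genes tested, and 0.268% in either direction. The gene that rose was Plin2, the lipid droplet coat protein perilipin 2. The genes that fell were 1.89-fold to 10.1-fold lower, with a median of 3.22-fold, and 35 of them were at least 2-fold lower. All 37 are protein coding, and in each of them the 2 groups did not overlap. Over all genes tested, 17.8% had both libraries with palmitic acid above both without, and 17.7% had both below. Without adjustment, 390 genes were higher and 446 lower at a p under 0.05. The median log2 fold change over all genes tested was 0.01, and 51.1% of them lay above 0.

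**Figure D1:**
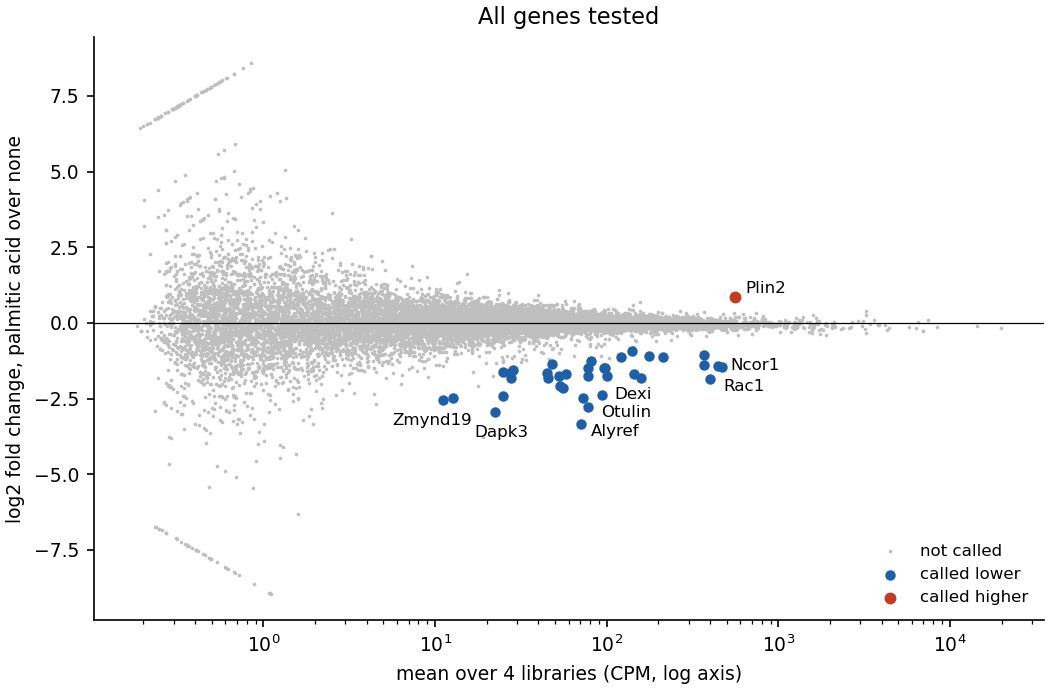
Log2 fold change of palmitic acid over none against the mean level of each gene in CPM (log axis), for the 13811 genes tested. The red point is Plin2, the blue points are the 36 genes called lower, and the slanted grey lines at far left are genes with no count in either library of a group.

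A count made without a model, by a rule chosen after the data were seen, was lopsided too. It used the same 4 libraries and scaled CPM, so it is no independent support. Among the 7949 genes with a mean of 10 CPM or more, 43 (0.541%) had both libraries with palmitic acid at least 2-fold below both libraries without it, and 33 of these are among the 36 called. In the other direction 1 gene (0.0126%) met the same rule. It was Nsun6, an RNA methyltransferase gene, at 8.48 and 7.02 CPM without and 17.0 and 22.5 CPM with palmitic acid, and it was not called by edgeR after the filter on low counts, while DESeq2 called it higher (adjusted p = 0.0242). With any 1 library left out, which leaves fewer pairs to satisfy, 9 to 33 genes were apart on the higher and 43 to 73 on the lower side. How many genes were called depended on the genes tested and on the tool. With genes of at least 10 CPM alone, edgeR called 5 higher (0.0629%) and 82 lower (1.03%) of 7950 tested. DESeq2, which was not limited to those genes, called 22 higher (0.148%) and 106 lower (0.715%) of 14816. All 37 called genes were called by both as well.

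Plin2 stood at 392 and 407 CPM without palmitic acid and at 755 and 686 CPM with it. Both libraries with the fatty acid lay well above both without. The fold change was 1.80, or 0.85 on the log2 scale (SE 0.08, adjusted p = 0.00492). In bulk libraries, more Plin2 RNA per cell and more cells that hold it cannot be told apart.

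In the wider list of lipid droplet genes, Plin2 was the 1 called member of 22 tested. Of the 22, 12 lay above 0, near the 51.1% of all genes tested, and the list's median log2 fold change was 0.07. Hilpda, which encodes an inhibitor of the droplet lipase ATGL, stood at 85.9 and 97.1 CPM without and 134.8 and 116.6 CPM with palmitic acid (log2 fold change 0.46, adjusted p = 0.593). Plin3, another perilipin, stood at 74.3 and 93.4 CPM against 105.2 and 115.6 CPM (0.40, adjusted p = 0.759). Soat2, which makes cholesteryl esters, stood at 35.3 and 50.9 CPM against 65.8 and 76.0 CPM (0.72, adjusted p = 0.599). None of these passed the edgeR test, although in each the groups did not overlap. Such separation is common here: 17.8% of all genes tested had both libraries with palmitic acid above both without, and 17.7% had both below. With no filter on low counts, Soat2 passed the edgeR test (adjusted p = 0.0197). That fit also called genes with counts in 1 library alone, such as Il17a, at 2.75 CPM in the second library with palmitic acid (adjusted p = 0.0379). Its p-values, here and below, may therefore understate the spread between replicates.

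Among genes for burning fatty acids, none of the 24 tested in the list of the carnitine shuttle and mitochondrial oxidation was called, and 18 of the 24 lay above 0 with a median log2 fold change of 0.10. Of all genes tested, 51.1% lay above 0 and 0.268% were called, so a list of this size with no call shows little. Cpt1a, the gateway enzyme of the carnitine shuttle, stood at 33.5 and 24.6 CPM without palmitic acid and 40.7 and 46.9 CPM with it (log2 fold change 0.59, SE 0.22, adjusted p = 0.764). Slc25a20, the carnitine-acylcarnitine carrier, stood at 71.3 and 76.8 CPM against 85.4 and 108.3 CPM (0.39, adjusted p = 0.781). Crat, carnitine acetyltransferase, lay on the other side, at 26.9 and 33.4 CPM against 20.9 and 18.5 CPM (-0.62, adjusted p = 0.765). Among 19 PPAR target genes tested, Plin2 was again the 1 called, and 10 lay above 0. Acsl1, which joins fatty acids to coenzyme A, stood at 21.4 and 17.8 CPM against 32.6 and 24.4 CPM (0.54, adjusted p = 0.863), and no member of the 14 tested for uptake and activation was called. Acsl3, of the same list and weakly expressed, stood at 0.303 and 0.562 CPM against 1.545 and 4.616 CPM (2.82, SE 0.92, adjusted p = 0.704). Of these 14 genes, 6 lay above 0 and 8 below. The lists for peroxisomal oxidation (17 tested), fatty acid synthesis (15), sterol synthesis (27), LXR targets (12) and ceramide metabolism (25) held no called gene either. In the peroxisomal list Ehhadh, weakly expressed, stood at 0.530 and 0.983 CPM against 2.37 and 5.64 CPM (2.40, SE 0.77, adjusted p = 0.690). Of those 17 genes, 9 lay above 0 and 8 below.

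Of the 36 genes that fell, 35 are given here in order of what their products do, a grouping made after the calls were seen. How many tested genes belong to each kind was not counted. The groups below therefore do not show that any kind was called lower more often than all genes tested, at 0.261%. The largest fall was that of Alyref, an adaptor that hands spliced messenger RNA to the export machinery. It stood at 137 and 119 CPM without palmitic acid and at 12.9 and 12.4 CPM with it, 10.1-fold lower (log2 fold change -3.34, SE 0.16, adjusted p = 0.00025). Srsf2, a serine- and arginine-rich splicing factor, stood at 141 and 144 CPM against 55.6 and 45.9 CPM, 2.81-fold lower. In both genes the replicates were close and the groups lay far apart.

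Several of the genes that fell encode small GTPases and G proteins, the molecular switches of signalling and membrane traffic. Rac1, a GTPase that drives actin remodelling, stood at 596 and 661 CPM without and 185 and 166 CPM with palmitic acid (3.59-fold lower, log2 fold change -1.84, SE 0.10, adjusted p = 0.00025). Arf6, which acts in traffic between endosomes and the plasma membrane, stood at 237 and 260 CPM against 70.1 and 70.7 CPM, 3.53-fold lower. Gnb1, the β1 subunit of heterotrimeric G proteins, stood at 547 and 515 CPM against 190 and 215 CPM, 2.62-fold lower. These 3 genes were well expressed in every library and fell in both with palmitic acid. Hras, a Ras GTPase of growth factor signalling, was 4.27-fold lower, Arl8a, which positions lysosomes, 3.40-fold lower, and Arl5a, a GTPase of the Golgi, 3.50-fold lower.

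The genes called lower also included 4 whose products add or remove ubiquitin. Otulin, which takes apart linear ubiquitin chains, stood at 144 and 129 CPM without and 19.5 and 20.2 CPM with palmitic acid, 6.88-fold lower (adjusted p = 0.00025). The ubiquitin ligase genes Rnf130 and Siah2 were 3.19-fold and 3.08-fold lower. Usp24, a deubiquitinase gene, was 3.55-fold lower. Of protein phosphatase 2A, the catalytic subunit Ppp2ca stood at 736 and 640 CPM against 271 and 235 CPM, 2.72-fold lower, and the regulatory subunit Ppp2r2d was 2.54-fold lower. Dapk3, a death-associated protein kinase, was 7.68-fold lower at 37.2 and 41.8 CPM against 5.87 and 4.41 CPM.

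Regulators of transcription among the 36 included 3 co-repressors. Ncor1, a co-repressor of nuclear receptors that include the PPARs, stood at 727 and 575 CPM without and 257 and 228 CPM with palmitic acid (2.69-fold lower, log2 fold change -1.43, SE 0.12, adjusted p = 0.00283). It was the 1 called member of 13 tested in the list of PPARs, their coactivators and uncoupling proteins. Ctbp1, a co-repressor that recruits chromatin-modifying enzymes, stood at 239 and 246 CPM against 108 and 117 CPM, 2.16-fold lower. Aes, a short relative of the Groucho co-repressors, showed the smallest fall of the 36, 1.89-fold. Cited2, which binds the coactivators CBP and p300, was 3.25-fold lower, and Akirin2, a nuclear cofactor, 3.13-fold lower.

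Products of the membrane and secretory system made up a further group. Lamp1, a major glycoprotein of the lysosomal membrane, stood at 485 and 512 CPM without and 248 and 226 CPM with palmitic acid (log2 fold change -1.07, SE 0.09). It was the 1 called member of 41 tested lysosome and autophagy genes, of which 24 lay above 0 with a median log2 fold change of 0.06. Of all genes tested, 51.1% lay above 0. Pi4k2a, a phosphatidylinositol 4-kinase of Golgi and endosomes, was 3.40-fold lower. Tmed7, a cargo receptor of the early secretory pathway, was 2.81-fold lower, and Snx20, a sorting nexin, 5.39-fold lower. Galnt1, which starts O-linked glycosylation, was 2.18-fold lower.

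Abhd17b encodes a thioesterase that removes palmitate from proteins. It stood at 112 and 117 CPM without and 46.5 and 49.3 CPM with palmitic acid, 2.39-fold lower (log2 fold change -1.26, SE 0.13, adjusted p = 0.00563). Its relative Abhd17c stood at 17.4 and 14.8 CPM against 7.18 and 7.29 CPM (-1.15, adjusted p = 0.531), apart in every library but not called. Among the 28 tested genes of protein palmitoylation, the enzymes that attach palmitate included no called gene. Of the 28, 12 lay above 0, against 51.1% of all genes tested.

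The chemokine gene Ccl17, a ligand of CCR4, stood at 42.4 and 40.0 CPM without and 13.9 and 12.4 CPM with palmitic acid, 3.13-fold lower (adjusted p = 0.0248). Mtch1, a protein of the outer mitochondrial membrane, was 4.42-fold lower. A further 7 genes called lower were Dexi (5.22-fold), Tmem243 (5.63-fold), Clptm1l (2.17-fold), Btbd1 (2.82-fold), Btbd2 (5.63-fold), Cables2 (2.95-fold) and Zmynd19 (5.89-fold). Counting was not stranded, and 11 of the 37 called genes overlap another protein-coding gene, among them Otulin, Rac1, Dexi, Arf6, Lamp1, Ncor1 and Srsf2, so part of their reads could belong to a neighbour.

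**Figure D2:**
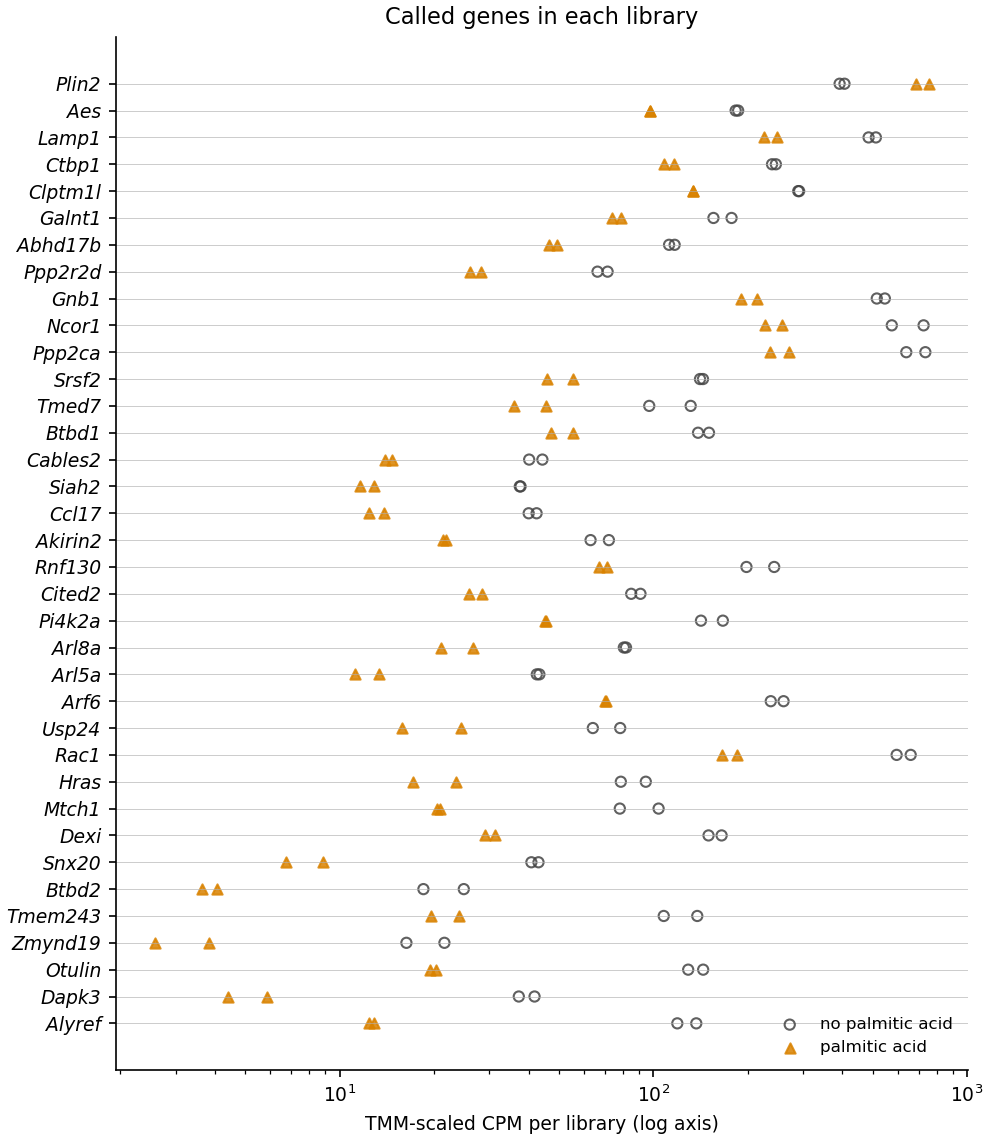
Level of 36 of the 37 called genes in each library, in TMM-scaled CPM on a log axis, with open circles for the 2 libraries without palmitic acid and triangles for the 2 with it. The triangles lie to the right for Plin2 alone and to the left of the circles for the other 35.

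Leaving out 1 library at a time kept Plin2 called in each of the 4 fits, at adjusted p-values of 0.00541 to 0.0228, and called 26 to 33 genes lower. Of the 37 genes, between 27 and 31 were called again, and all 37 kept their direction. Those that lost the call in at least 1 of these fits were the 10 with the largest p-values: Akirin2, Arl5a, Btbd2, Cables2, Ccl17, Ppp2r2d, Siah2, Tmed7, Usp24 and Zmynd19. All 10 lost it without the first library that lacked palmitic acid.

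The genes that fell shared a property of their transcripts that the test did not use, which was looked for after the calls were known. Their 5′ untranslated regions, the stretch before the start codon, were rich in G and C. In the longest coding transcript of each gene (GENCODE M21, GRCm38), G and C made up a median of 77.8% of this region in 35 genes called lower with at least 20 bases of it. In 7525 uncalled genes with 10 CPM or more the median was 64.8% and the upper quartile 71.5%. Of the 35, 33 lay above that median and 27 above that upper quartile, while the region of Plin2 held 56.3%. The pattern came out of a wider search of transcript regions and short words made after the calls, of which 11 transcript and promoter features are kept here, so its size is a description of these genes and carries no test. The coding region differed less, at 53.3% against 51.7%, and the length of the 5′ region was much the same, at 185 against 179 bases.

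Split into 4 bins of rising G and C, genes with 10 CPM or more held 1, 1, 7 and 26 of the genes called lower, among 1893, 1888, 1890 and 1890 genes. In the top bin 1.38% of genes were called lower. That bin as a whole was centred near 0, with a median log2 fold change of -0.01 against 0.01 to 0.02 in the other bins, while its 5th percentile reached -0.61 against -0.30 to -0.35. The part of base composition in these calls was not tested.

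**Figure D3:**
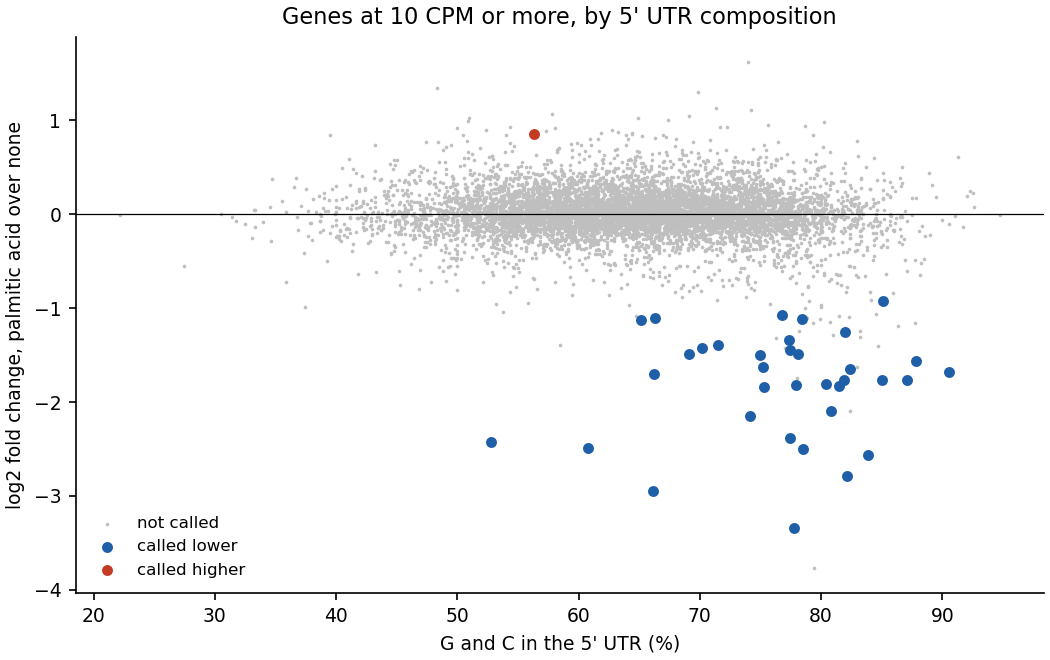
Log2 fold change of palmitic acid over none against the share of G and C in the 5′ untranslated region (%), for genes with a mean of 10 CPM or more. Most of the blue points, the genes called lower, lie above 71.5%, the upper quartile of the uncalled genes, while the grey cloud at the same values stays centred on 0.

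The DNA upstream of these genes was likewise rich in CpG dinucleotides. RefSeq windows of the GRCm38.p6 build were matched for 27 of the 37 called genes. In the 250 bases before the transcription start, the genes called lower held a median of 26 CpG, against 17 in uncalled genes with 10 CPM or more. Plin2 held 6, the median of all 32851 windows in the table. The windows of Plin2 and of the first 3 genes by p-value among those that fell and have a window follow, 5′ to 3′, with each CpG in capitals. They are shown because the gene that rose and the genes that fell differ in CpG, which runs from 6 to 47 in these 4 windows. Among the genes called lower the fewest, 3, are in the window of Ccl17.
Plin2: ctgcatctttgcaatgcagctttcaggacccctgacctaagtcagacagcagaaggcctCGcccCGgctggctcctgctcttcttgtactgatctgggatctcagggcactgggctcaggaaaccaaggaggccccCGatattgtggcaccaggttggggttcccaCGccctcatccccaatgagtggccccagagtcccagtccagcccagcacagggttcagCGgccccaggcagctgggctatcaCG
Alyref: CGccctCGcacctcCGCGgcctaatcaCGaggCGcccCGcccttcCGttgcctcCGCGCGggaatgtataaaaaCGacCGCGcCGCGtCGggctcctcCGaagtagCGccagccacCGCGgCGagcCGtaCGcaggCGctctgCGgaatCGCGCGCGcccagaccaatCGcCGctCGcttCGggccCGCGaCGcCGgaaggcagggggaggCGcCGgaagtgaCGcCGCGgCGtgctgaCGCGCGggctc
Otulin: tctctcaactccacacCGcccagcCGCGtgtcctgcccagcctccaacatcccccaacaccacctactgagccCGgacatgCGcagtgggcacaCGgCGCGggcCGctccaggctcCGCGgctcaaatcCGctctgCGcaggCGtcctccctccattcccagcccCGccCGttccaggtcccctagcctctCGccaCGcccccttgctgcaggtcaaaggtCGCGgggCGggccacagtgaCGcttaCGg
Dexi: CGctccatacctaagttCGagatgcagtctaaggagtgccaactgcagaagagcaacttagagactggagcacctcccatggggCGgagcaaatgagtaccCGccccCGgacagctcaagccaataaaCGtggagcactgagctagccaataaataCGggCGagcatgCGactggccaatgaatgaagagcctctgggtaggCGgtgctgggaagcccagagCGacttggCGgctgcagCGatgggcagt
All 4 lie on the minus strand, at chr4:86670060-86670309 for Plin2, chr11:120598366-120598615 for Alyref, chr15:27630694-27630943 for Otulin and chr16:10543055-10543304 for Dexi. Alyref has 47 CpG, and 0.25% of all windows have as many. Otulin has 23, and Dexi, with 13, is below the median of the uncalled genes. The Plin2 window holds 1 copy of AGGTCA, the core motif bound by PPARs and other nuclear receptors, searched on both strands. The motif was also in 5 of the 26 windows of genes called lower (19.2%), that of Otulin among them. It was in 10.4% of the windows of uncalled genes with 10 CPM or more and in 14.0% of all windows. The motif GGGCGG (both strands) was found in 23 of the 26 windows of genes called lower (88.5%), in 61.4% of those of uncalled genes with 10 CPM or more and in 32.7% of all windows. A match describes these letters and is not a binding site.

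The identity genes of LTi cells were present in every library and none was called by edgeR after the filter on low counts. The share called among all genes tested was 0.268%, so the lack of a call among 14 genes shows little. Il22 was the most abundant of the 14 markers, at 21430 and 20310 CPM without and 19280 and 17770 CPM with palmitic acid (log2 fold change -0.17, SE 0.07, adjusted p = 0.781). With no filter it was called lower at the same fold change (adjusted p = 0.0416). The sorting markers Kit (278 and 270 CPM against 277 and 246 CPM) and Ccr6 (976 and 1011 CPM against 1089 and 964 CPM) overlapped between the groups. Ltb, the membrane anchor of lymphotoxin, stood at 537 and 534 CPM against 423 and 478 CPM (-0.25, adjusted p = 0.740). The markers' median log2 fold change was -0.07. In 6 of the 14 both libraries with palmitic acid lay below both without, and in 1 both lay above. Over all genes tested, 17.7% had both below and 17.8% both above.

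Cytokine and receptor genes gave a similar picture. None of 16 tested cytokine genes, 32 surface receptors or 27 transcription factors of innate lymphoid cells was called by edgeR after the filter. As 0.268% of all genes tested were called, lists of these sizes with no call show little. Areg, the epidermal growth factor family member amphiregulin, stood at 2.91 and 12.1 CPM without and 21.0 and 25.2 CPM with palmitic acid (log2 fold change 1.62, SE 0.56, adjusted p = 0.740). With no filter Areg passed the test on all 4 libraries (adjusted p = 0.00058). Without the first of the libraries that lacked palmitic acid, at 2.91 CPM, its log2 fold change was 0.94, and without the second it was 2.99 and passed (adjusted p = 0.0419). Pdcd1, which encodes PD-1, stood at 81.5 and 102 CPM against 99.0 and 126.5 CPM (0.30, SE 0.16, adjusted p = 0.927), and its groups overlapped.

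**Figure D4:**
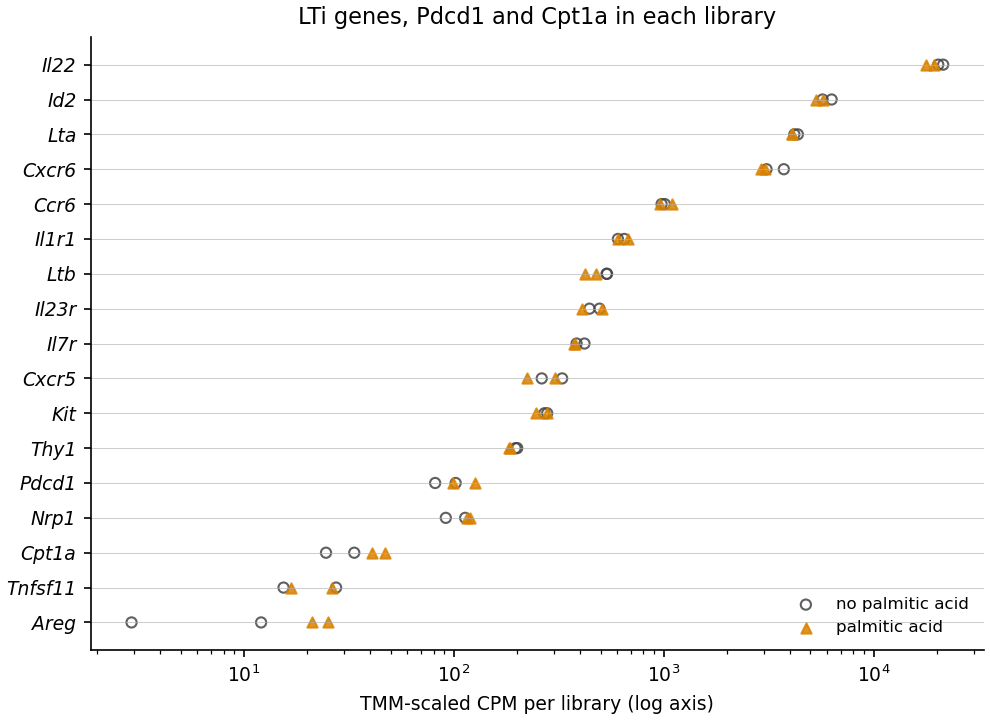
Level of LTi genes, of Pdcd1 and of Cpt1a in each library, in TMM-scaled CPM on a log axis. Circles and triangles lie close together in most genes, with Areg the widest apart.

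Transcripts of the translation and respiration machinery lay slightly lower with palmitic acid, by amounts far smaller than those of the called genes, and none of them was called by edgeR after the filter. Of 79 genes for cytosolic ribosomal proteins, 75 lay below 0, with a median log2 fold change of -0.13, while 51.1% of all genes tested lay above 0. In 48 of them both libraries with palmitic acid lay below both without, and in 1 both lay above. Over all genes tested, 17.7% had both below and 17.8% both above. All 13 mitochondrially encoded genes of the respiratory chain lay below 0 (median -0.27), and so did 48 of 55 nuclear-encoded ones (median -0.11). mt-Nd5, a subunit of complex I, stood at 1116 and 1128 CPM without and 938 and 889 CPM with palmitic acid (-0.30, SE 0.07, adjusted p = 0.418). DESeq2 called it lower (adjusted p = 0.0119), and edgeR with no filter called mt-Cytb, a subunit of complex III, lower (-0.34, adjusted p = 0.000143). The direction of these 3 medians was the same under each scaling tried, with values of -0.09, -0.24 and -0.07 under library totals alone. Without the first library that lacked palmitic acid, the mitochondrial median was -0.12. These genes share their libraries, so their number is no count of independent observations.

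Stress pathways showed no member called by edgeR after the filter, although other settings called some of those named here. With 0.268% of all genes tested called, lists of these sizes with no call show little. The unfolded protein response list (29 tested) had a median log2 fold change of 0.0015, with Hspa5, the main chaperone of the endoplasmic reticulum, at 667 and 691 CPM without and 759 and 760.2 CPM with palmitic acid (0.16, adjusted p = 0.852). The integrated stress response list (40 tested) had a median of 0.03. Its member Cebpb, a transcription factor gene, stood at 57.5 and 13.8 CPM against 3.13 and 2.11 CPM (-3.76, SE 0.65, adjusted p = 0.126), and its 2 libraries without palmitic acid were themselves far apart. On all 4 libraries Cebpb was called lower by DESeq2 (adjusted p = 2.36e-11) and by edgeR with no filter (2.32e-25), with a mean of 10 CPM or more (0.000206), with the replicate block (0.0082) and with counts divided by 2 (0.0289). Without the library at 13.8 CPM, its log2 fold change was -4.45. The fit with no filter also called genes with counts in 1 library alone, so its small p-value may understate the spread between replicates. Gclc, the rate-limiting enzyme of glutathione synthesis and a member of the NRF2 list, stood at 122 and 112 CPM against 71.6 and 65.6 CPM (-0.77, SE 0.12, adjusted p = 0.0930). The same 5 settings on all 4 libraries called Gclc lower, at adjusted p-values of 7.48e-05 to 0.0461. Jund, an AP-1 factor, stood at 104 and 96.7 CPM against 56.3 and 62.3 CPM (-0.76, adjusted p = 0.134), and was called lower by DESeq2 (adjusted p = 0.000441) and by edgeR with no filter (0.00088) or with a mean of 10 CPM or more (0.00563). Lists of NF-κB genes (24 tested), heat-shock chaperones (14), cell death (32), glycolysis (24), hypoxia targets (21) and the cell cycle (42) likewise held no gene called by edgeR after the filter. Rela of the NF-κB list was called lower by DESeq2 (adjusted p = 0.0253) and by edgeR with a mean of 10 CPM or more (0.0425) or no filter (0.0487). Interferon-stimulated genes had a median of -0.18, with 20 of 29 below 0, while 51.1% of all genes tested lay above 0. DESeq2 called 1 of the interferon-stimulated genes, B2m, lower (-0.28, adjusted p = 0.0148). Limma-voom (0.0334) and edgeR with no filter (0.000546) called B2m lower too.

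**Figure D5:**
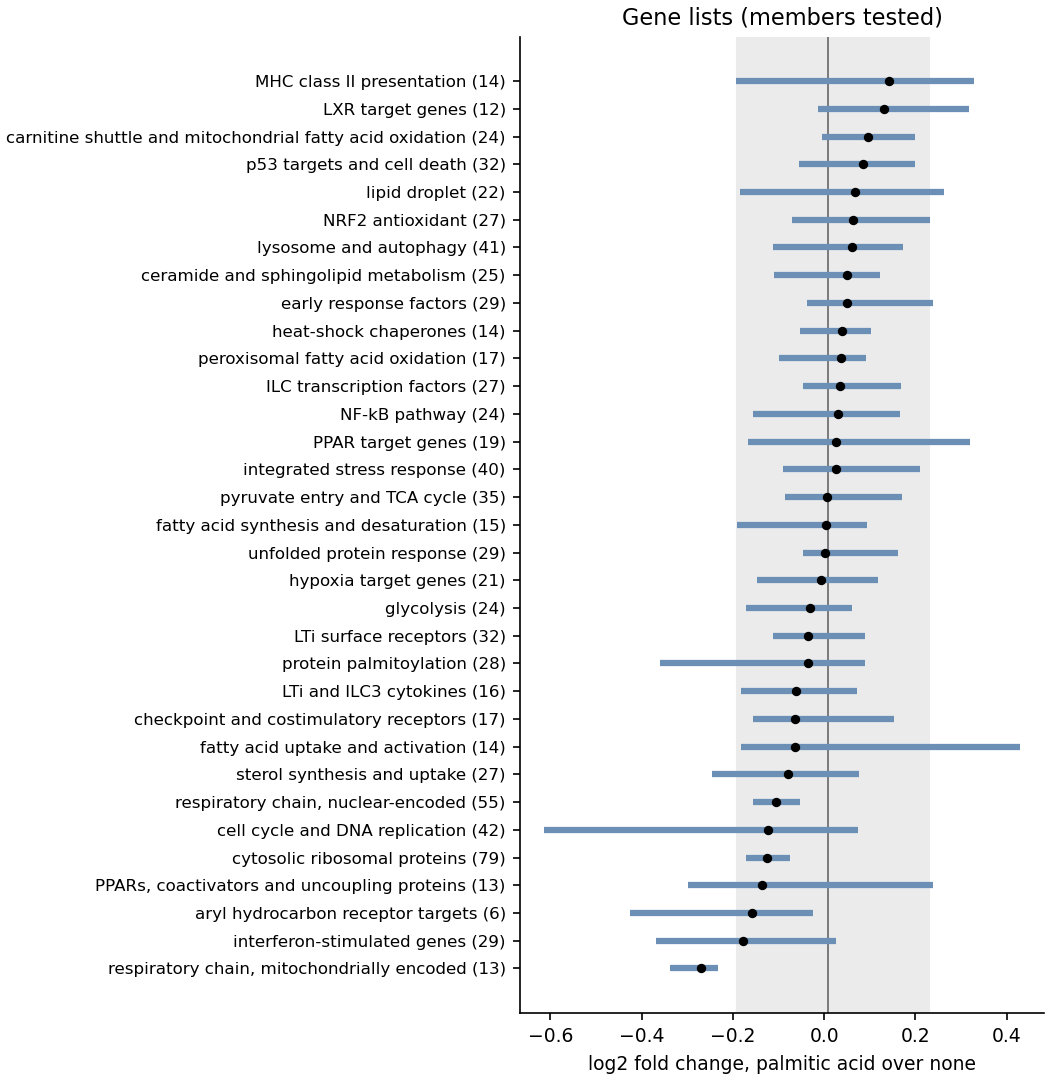
Median (dot) and middle range from the lower to the upper quartile (bar) of the log2 fold change in each pathway list, with the number of members tested in brackets. The grey band and line give the same for all 13811 genes, and the mitochondrially encoded genes alone have their whole bar below the grey band.

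Sums of markers of other cell types were low beside the sum of the LTi markers, 31500 to 36610 CPM. Of that sum Il22 alone made 17770 to 21430 CPM. All 7 neutrophil markers were at 0 counts in every library. Mast cell markers summed to at most 1.83 CPM and erythroid markers to at most 1.03 CPM. T cell markers summed to 375 to 460 CPM without and 407 to 463 CPM with palmitic acid, and 3 of the 10 were at 0 throughout. The most abundant of them was Trbc2, at 298 and 246 CPM without and 307 and 247 CPM with palmitic acid. That is about the level of the sorting marker Kit. Macrophage and dendritic cell markers summed to 95.6 and 95.9 CPM against 65.4 and 89.5 CPM, with 8 of 14 at 0 throughout. Epithelial markers summed to 15.9 to 19.9 CPM in all libraries. Stromal and endothelial markers summed to 79.7 to 109.9 CPM, B cell markers to 50.4 to 73.2 CPM and plasma cell markers to 49.6 to 59.0 CPM. Markers of ILC2 summed to 47.35 to 65.8 CPM, of ILC1 and NK cells to 23.15 to 48.0 CPM, and of NCR+ ILC3 to 23.15 to 46.6 CPM. The part of other cells in the results was not tested.

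In the series' other culture of small intestinal LTi cells, all cells had palmitic acid and L-carnitine, and the mice were Pdcd1-/-Rag2-/-. There, on the scale of library totals alone, Plin2 stood at 209 and 254 CPM in the 2 libraries with etomoxir, an inhibitor of carnitine palmitoyltransferase 1, and at 74.05 CPM in the vehicle libraries, which were summed as 1 sample because the headers of their count columns name the same library. Alyref stood at 47.0 and 110 CPM with etomoxir and 58.4 CPM in the vehicle sample. Mice, culture time and additives differ between the 2 cultures, so these values stand side by side and were not compared.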

How the data were processed

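RNA of 4 LTi libraries (2 per group) was measured. SMART-Seq HT cDNA, which carries no strand mark, went into NEBNext Ultra DNA libraries read from both ends over 150 bases, per the labels' protocols. The authors deposited raw read counts per gene. Per the submitters' processing notes, alignment used HISAT2 2.1.0, with mm10 and GRCm39 named as builds. Counting used featureCounts 2.0.3 and the Ensembl release 94 annotation of GRCm38, per the file headers of the palmitic acid group. In the 4 libraries 59.96% to 61.07% of the counts from 1 to 20 were even, as when each mate of a pair adds 1 count.

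The deposited counts were scaled by TMM, filtered with filterByExpr (13811 of 54446 genes) and tested with edgeR 4.0.16 (robust quasi-likelihood F-test, 2 residual degrees of freedom) in R 4.3.3. P-values were adjusted over all genes tested and called under 0.05. CPM values are TMM-scaled unless said otherwise. Alternatives were DESeq2 1.42.0, limma-voom 3.58.1, other scalings and filters, counts divided by 2, a replicate block and leaving out each library. The edgeR code was tested on simulated data. The 33 pathway and 13 marker lists are described by counts and medians and were not tested. The gene sets and lists were chosen with earlier results of these data known. Named genes were Plin2, LTi markers, the 15 genes with the smallest p and the 5 with the largest fold each way among called genes with 10 CPM or more, up to 4 called members each way or else the 2 with the smallest p of each pathway list, and the most abundant member of each marker list. The other called genes, Soat2, Plin3, Slc25a20, Abhd17c, Nsun6 and the genes of the closing section fall outside this rule and were chosen after their values were seen. Of the genes this rule names, 2 are not reported here.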

Additional observations from a re-analysis of the deposited data

How the results depend on the processing

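Depth was even across libraries, and each group had 2 replicates. All 37 called genes were called again under DESeq2 size factors, limma-voom, counts divided by 2, the replicate block, no filter, a filter at a mean of 10 CPM and DESeq2, and 36 of them under library totals alone, where Zmynd19 was lost. The number of calls moved more. With no filter, 31 genes were called higher and 113 lower, 19 and 71 of them at 2-fold or more. Some of these had counts in 1 library alone, such as Tm6sf2, at 3.03 CPM in the second library with palmitic acid. With a mean of 10 CPM or more, 5 were higher and 82 lower, 54 of the latter at 2-fold or more. DESeq2 gave 22 higher and 106 lower, with 10 and 68 at 2-fold or more. Fewer or more genes entered these tests, and the cause of the rest was not tested. The difference of replicate 2 from replicate 1 correlated at 0.0161 over genes between the groups. This value cannot show whether same-numbered libraries shared a mouse or culture. With the replicate block 2 genes were higher (Lmna joined Plin2) and 42 lower. Leaving out each library gave 1 to 2 genes higher, 0 to 1 of them at 2-fold or more, and 26 to 33 lower, 25 to 32 of them at 2-fold or more. Areg was called higher with no filter (adjusted p = 0.00058, edgeR) and without the second library that lacked palmitic acid (adjusted p = 0.0419, edgeR). The added count of genes apart by 2-fold in every pair of libraries, chosen after the data were seen, was 9 to 33 higher and 43 to 73 lower when a library was left out. No called gene changed direction. Of 1357 values of named genes under the alternatives, 20 had the opposite sign, each in a gene not called in either fit. Of 537 list medians, 69 had the opposite sign, 25 on all 4 libraries and 44 with a library left out, in 31 of the 45 lists. Of the medians printed above, those of the unfolded protein response and the integrated stress response changed sign.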

Other observations

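Testing the genes with a mean of 10 CPM or more alone called 50 further genes, whose values are given here and which were picked out after they were seen. The 4 that joined Plin2 on the higher side were Lmna, Tspan32, Mboat7 and Osbpl3. Lmna, which encodes the nuclear lamins A and C, stood at 107 and 132 CPM without and 167 and 216 CPM with palmitic acid (log2 fold change 0.68, adjusted p = 0.00438, edgeR). Mboat7, an acyltransferase of phosphatidylinositol, stood at 23.5 and 31.4 CPM against 52.7 and 51.1 CPM, and Osbpl3, an oxysterol-binding protein relative, at 49.3 and 48.4 CPM against 68.9 and 91.0 CPM. Of the 46 further genes on the lower side, Cebpb had the largest fold. Ltb4r1, a receptor of leukotriene B4, stood at 172 and 187 CPM against 94.99 and 112 CPM (-0.80, adjusted p = 0.000129). Rela, a subunit of NF-κB, stood at 207 and 215 CPM against 150 and 164 CPM, and Prkaca, a catalytic subunit of protein kinase A, at 23.8 and 26.6 CPM against 10.1 and 6.24 CPM. Ppp2r5a, another regulatory gene of protein phosphatase 2A, stood at 148 and 106 CPM against 53.4 and 65.2 CPM.

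Some weakly expressed genes had at least 20 counts in both libraries of 1 group and none in either library of the other. There were 13 such genes present without palmitic acid and 21 present with it. Ctla4, a checkpoint receptor gene, had 59 and 62 counts without and 0 with palmitic acid, at least 41.3-fold lower against a floor of 3 counts over the group, and was not called (adjusted p = 0.232, edgeR), while DESeq2 (adjusted p = 0.00227) and edgeR with no filter (adjusted p = 0.00088) called it lower. Cd200r2, of the CD200 receptor family, had 61 and 37 counts with and 0 without palmitic acid, at least 31.9-fold higher (adjusted p = 0.346, edgeR), and was called higher by DESeq2 (adjusted p = 0.0142) and with no filter (adjusted p = 0.00886). Within a group, 473 genes without and 431 with palmitic acid had 0 counts in 1 replicate and 20 or more in the other, so a gene at 0 is common between replicates too.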
